A study of Mus musculus with 7 samples.

Results

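Triggering receptors expressed on myeloid cells (TREM), CD300 receptors and the adaptors that carry their signal were examined in lipid droplet-rich microglia of old and young male mice after brain ischemia. The 10 genes are Trem1, Trem2, Trem3, Treml4, Cd300a, Cd300lb, Cd300ld, Cd300lf, Tyrobp and Hcst. They were chosen by symbol, and all 10 were found among the 50686 genes quantified in each library. The 7 libraries came from C57BL/6 male mice, 4 of them Young (3 to 4 months, mouse codes 14C, 18C, 23C and 29C) and 3 Old (21 to 22 months, 2posI, 3posI and 4posI). Every mouse underwent a 45 min occlusion of the middle cerebral artery without a drug under test, and microglia were sorted on day 4 with antibodies to CD11b and CD45 and with Bodipy, a dye for neutral lipids. The study's gate for microglia, CD11b+ with low CD45, is meant to leave out most blood leukocytes. Only Bodipy+ cells were compared, so the libraries say nothing of cells without droplets, of uninjured brain or of females. Each library was labelled with 1 animal code.

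TREM and CD300 proteins are cell surface receptors with an immunoglobulin-like domain. Most activating members have almost no signalling tail of their own and pair through a charged residue in the membrane with an adaptor, chiefly DAP12, the product of Tyrobp. DAP12 carries an immunoreceptor tyrosine-based activation motif (ITAM), which Src family kinases phosphorylate and which then recruits the kinase Syk. DAP10, the product of Hcst, instead carries a tyrosine motif that recruits phosphoinositide 3-kinase (PI3K). Inhibitory CD300 receptors carry immunoreceptor tyrosine-based inhibition motifs (ITIM) in their own tail and recruit the phosphatases SHP-1 and SHP-2. In microglia TREM2 and DAP12 are best known for sensing lipids, apolipoproteins and cell debris.

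The coding sequences that separate these roles are shown because the genes below are ordered by them. They were read from the longest open reading frame of the GENCODE vM21 transcripts, 5′ to 3′, with the tyrosine codons in capitals.
Tyrobp: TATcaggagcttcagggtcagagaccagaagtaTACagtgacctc
Hcst: TACatcaacatg
Cd300a: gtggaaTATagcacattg
Cd300a: cttcacTATtcatccgtg
Cd300lf: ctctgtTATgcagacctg
Cd300lf: gtttcaTATgccgctctg
The Tyrobp stretch, the ITAM of DAP12, covered codons 92 to 106 of 114. The Hcst stretch, the PI3K-binding motif of DAP10, covered codons 72 to 75 of 79. Matches to the ITIM pattern lay at codons 260 to 265 and 272 to 277 of 318 in Cd300a, and at codons 239 to 244 and 287 to 292 of 337 in Cd300lf. The same search found no ITAM, ITIM or PI3K-binding pattern in the reading frames of Trem1, Trem2 and Cd300lb. Cd300lf also held a match to the PI3K-binding pattern at codons 276 to 279, between its ITIM matches, and Tyrobp a match to the ITIM pattern at codons 90 to 95, within the stretch around its ITAM. A match is a description of the letters, and those in other members or outside the tails are not listed.

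The genes lie in 3 clusters of GRCm38. Trem1, Trem3, Treml4 and Trem2 occupy chromosome 17 between 48232768 and 48354147, all on the plus strand. Cd300a on the plus strand and Cd300lb, Cd300ld and Cd300lf on the minus strand occupy chromosome 11 between 114890041 and 115133992. Tyrobp (plus strand) and Hcst (minus strand) lie tail to tail on chromosome 7 between 30413760 and 30419854, with 126 bases between them. No exon of a member overlapped an exon of another gene. The libraries were not stranded, so reads running past the end of either adaptor gene could not be told apart by strand. Expected counts were fractional, which marks reads shared with other genes, in 7 of 7 libraries for Cd300a and Cd300lf and in 6 of 7 for Cd300ld, so the values of these 3 genes are less certain than the rest.

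RefSeq promoters, from 250 bases before to 50 bases after the start site on GRCm38.p6, were matched for 8 of the 10 genes. They are shown for Trem2 and Cd300lf, the most abundant receptor and the most abundant CD300 gene among the 10, and for the adaptor Hcst. The capitals mark GAGGAA or its complement TTCCTC, the core letters of sites of the myeloid factor PU.1.
Trem2: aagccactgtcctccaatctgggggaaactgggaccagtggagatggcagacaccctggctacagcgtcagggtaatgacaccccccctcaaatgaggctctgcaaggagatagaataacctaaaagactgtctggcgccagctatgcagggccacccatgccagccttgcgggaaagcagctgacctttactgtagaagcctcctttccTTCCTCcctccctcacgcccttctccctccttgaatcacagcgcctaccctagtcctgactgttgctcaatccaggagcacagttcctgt
Hcst: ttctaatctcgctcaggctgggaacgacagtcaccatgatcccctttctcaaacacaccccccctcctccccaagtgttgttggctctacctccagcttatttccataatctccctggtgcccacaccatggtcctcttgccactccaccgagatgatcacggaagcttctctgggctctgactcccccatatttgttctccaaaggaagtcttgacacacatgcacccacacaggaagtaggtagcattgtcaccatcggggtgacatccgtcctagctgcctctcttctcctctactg
Cd300lf: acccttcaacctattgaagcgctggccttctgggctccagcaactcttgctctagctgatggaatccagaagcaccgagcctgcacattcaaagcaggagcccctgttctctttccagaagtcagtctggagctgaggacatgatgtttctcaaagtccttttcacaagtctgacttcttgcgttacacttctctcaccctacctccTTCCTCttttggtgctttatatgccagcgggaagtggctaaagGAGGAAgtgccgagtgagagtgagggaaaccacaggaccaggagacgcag
The Trem2 window, chr17:48346151-48346450 on the plus strand, held 1 match. The Hcst window, chr7:30419805-30420104 on the minus strand, held 0, and the Cd300lf window, chr11:115133943-115134242 on the minus strand, held 2. On either strand 6 of the 8 windows held a match, and 28.3% of the 32851 promoters in the table did. No binding was measured here, and the absence of these letters says nothing of the factor.

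Libraries held 36574083 to 53002386 expected counts, of which the 10 genes took 0.306% to 0.380%. All 12 microglia markers, Fcrls among the highest, were detected in every library. Ribosomal RNA genes, those of the mitochondria included, held 4.14% to 4.99% of Young and 2.21% to 3.37% of Old counts. The ages did not overlap in this share, and a difference in preparation could not be told apart from age. The old library 3posI stood apart. Its summed microglia markers reached 6925 TPM (transcript abundance scaled to a fixed total within each library), against 15160 to 23180 TPM in the other libraries, and 0 of the 12 were highest there. Its 10 classical monocyte markers, led by Chil3 and Fn1, summed to 2475 TPM against 79.8 to 240.2 TPM, and 10 of 10 were highest there. Markers of border-associated macrophages, led by Ms4a7 and Pf4, summed to 1831 TPM against 161 to 562 TPM, and 6 of 8 were highest there. Dendritic cell markers, led by Itgax and Ccr7, summed to 53.6 TPM against 8.43 to 25.6 TPM, and 3 of 7 were highest there. In bulk RNA, more cells of a type and more RNA per cell cannot be told apart. Fitted differences of the members are therefore given with and without 3posI.

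The 10 genes spanned a wide range of levels. By mean TPM, which is scaled by transcript length and allows genes to be compared, Tyrobp came first with 4803 TPM, rank 23 of all 50686 genes, and Trem2 second with 1874 TPM, rank 59. Hcst (82.6 TPM), Cd300lf (78.5 TPM) and Cd300a (56.3 TPM) formed a middle group, followed by Cd300ld (19.6 TPM), Cd300lb (11.1 TPM) and Trem1 (9.81 TPM). Trem3 (2.07 TPM) and Treml4 (0.846 TPM) were lowest. Library ranges did not overlap between Tyrobp and Trem2, between Trem2 and Hcst, or between Cd300a and Cd300ld, and they overlapped between all other neighbours in this order. Within libraries Hcst exceeded Cd300lf in 6 of 7, Cd300lf exceeded Cd300a in 5 of 7 and Cd300lb exceeded Trem1 in 4 of 7. The order of Hcst, Cd300lf and Cd300a, and that of Cd300lb and Trem1, thus depended on the mouse.

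**Figure D1:**
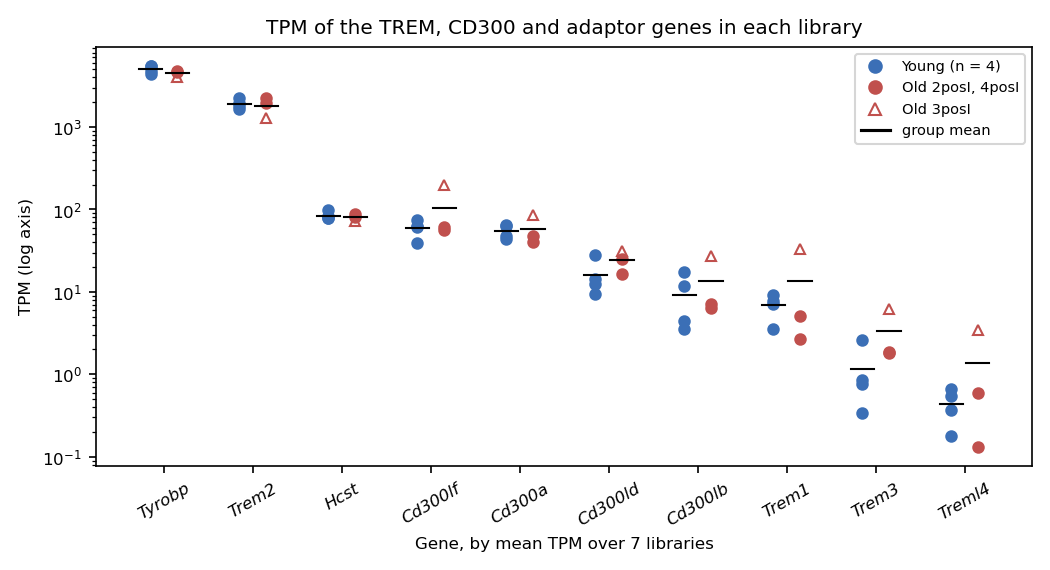
TPM of the 10 genes (log axis), ordered by their mean over 7 libraries, with 1 point per library, Young and Old in different colours and 3posI as an open triangle. Tyrobp and Trem2 lie far above the other 8 genes in every library, and the low genes Treml4 and Trem3 span the widest fold range.

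No member passed the threshold between old and young mice. The quasi-likelihood test of edgeR was run on the expected counts of 17559 autosomal genes, and 141 of them (0.803%) had an adjusted p under 0.05. Of the 10 members 0 were called, and 0 had an unadjusted p under 0.05, against 18.9% of all genes tested. Likewise 0 of the 10 had old and young ranges that did not overlap, against 17.7% of all genes. With other tools 0 were called as well, while an unadjusted p under 0.05 was reached by Trem3 and Cd300lf with DESeq2 and by Trem3 alone with limma-voom. Trem3 and Cd300lf also reached it in edgeR without a filter on low counts, and Trem3 on the log2(TPM + 0.1) scale. In edgeR without 4posI it was reached by Cd300ld, Cd300lf and Trem3, and without 2posI by Cd300lf and Treml4. Without 23C it was reached by Cd300ld, without 29C by Trem3, and without 3posI by 0 members. Fitted log2 differences were above 0 for 8 of 10 members with a median of 0.64, against 48.8% of all genes and a median of -0.01. Without 3posI they were above 0 for 7 of 10 with a median of 0.01, against 48.1% of all genes and a median of -0.02. The library 3posI had the highest value of 7 of the 10 members, and of 21.5% of all genes tested.

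**Figure D2:**
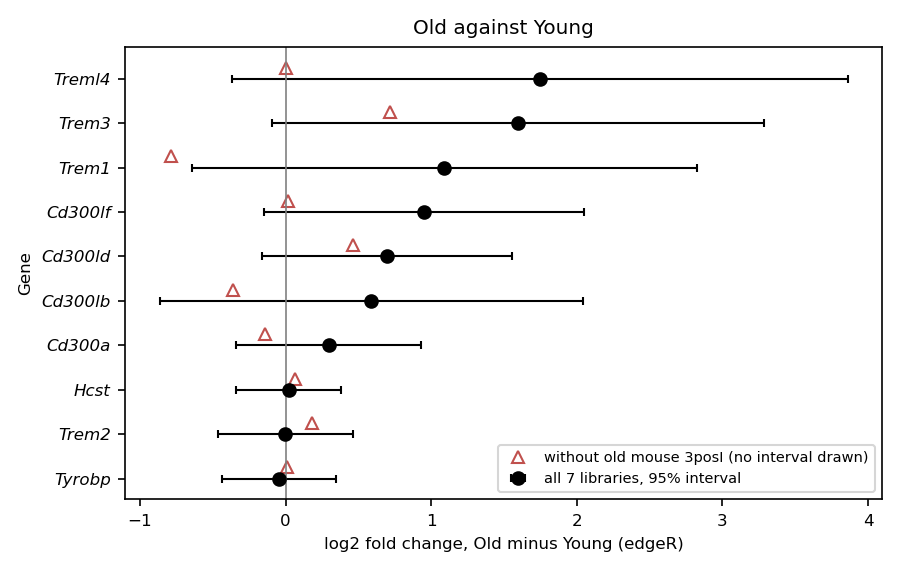
Log2 difference Old minus Young of each member with its 95% confidence interval (edgeR), beside the difference fitted without 3posI. All 10 intervals include 0, those of Trem2, Tyrobp and Hcst are the narrowest, and the difference of Trem1 is 1.09 with and -0.79 without 3posI.

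The adaptor Tyrobp was nearly level across mice. In CPM, counts scaled to library size with TMM factors, which compare 1 gene between libraries, it measured 1829 in 14C, 2024 in 18C, 1649 in 23C and 2206 in 29C among Young, and 2137 in 2posI, 1706 in 3posI and 1749 in 4posI among Old. The highest and the lowest library were both Young, and the old values lay within the young range. The means were 1927 ± 241 CPM (SD, n = 4) and 1864 ± 238 CPM (SD, n = 3), with a log2 difference of -0.05 (SE 0.17, adjusted p = 0.903, edgeR). The 95% confidence interval of the old to young ratio was 0.738 to 1.27. Without 3posI the log2 difference was 0.01 (adjusted p = 0.981).

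Hcst showed a similar course at a lower level. It measured 21.9, 22.5, 21.6 and 29.4 CPM in Young 14C, 18C, 23C and 29C, and 27.9, 22.6 and 22.1 CPM in Old 2posI, 3posI and 4posI. Young 29C was the highest library for both adaptors, and the ages overlapped. The log2 difference was 0.02 (SE 0.16, adjusted p = 0.959, edgeR), with an interval of the ratio from 0.790 to 1.30. With 3posI left out it was 0.07 (adjusted p = 0.878). On the TPM scale the ratio of Tyrobp to Hcst was 54.8 to 66.4 in single libraries.

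Trem2, the lipid and apolipoprotein receptor that signals through DAP12, did not differ beyond its spread. It measured 1348 CPM in 14C, 1651 in 18C, 1239 in 23C and 1557 in 29C, and 1647 CPM in 2posI, 1059 in 3posI and 1630 in 4posI. Among old mice 2posI and 4posI were close to the highest young library, whereas 3posI was the lowest of all 7. The young mean was 1449 ± 189 CPM (SD, n = 4), and the old mean was 1446 ± 335 CPM (SD, n = 3). The log2 difference was -0.0032 (SE 0.20, adjusted p = 0.995, edgeR). With 3posI left out it was 0.18 (adjusted p = 0.634). The interval of the old to young ratio was 0.724 to 1.38, and differences within it could not be detected with these libraries. The low value in 3posI went with the low sum of microglia markers there, and their part in it was not tested.

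Trem2 and its adaptor were also compared within each library. The ratio of Trem2 to Tyrobp in TPM was 0.373 in 14C, 0.410 in 18C, 0.382 in 23C and 0.357 in 29C, and 0.400 in 2posI, 0.321 in 3posI and 0.482 in 4posI. The lowest and the highest ratio both came from old mice. The young mean was 0.380 ± 0.022 (SD, n = 4), and the old mean was 0.401 ± 0.081 (SD, n = 3). By the root mean square difference of centred log2 CPM over the 7 libraries, Tyrobp and Hcst differed by 0.09, Trem2 and Tyrobp by 0.17, and Trem2 and Hcst by 0.22. Trem2 and Tyrobp differed from the 7 remaining members by 0.49 to 1.61. Among the 8138 genes of at least 10 CPM the closest to Trem2 were Letmd1 (0.03), Naa35 (0.04) and Armc10 (0.06), and the closest to Tyrobp were Btf3l4 (0.04), Tvp23b (0.04) and Timm21 (0.05). Such small values mark genes whose CPM moved across the 7 libraries in nearly the same way, and no shared function follows from them.

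Trem1, a receptor that amplifies inflammatory signals through DAP12 and is known from neutrophils and monocytes, rested on 1 old mouse. It measured 16.4 CPM in 14C, 7.05 in 18C, 15 in 23C and 20.3 in 29C, and 6.44 CPM in 2posI, 76.7 in 3posI and 10.5 in 4posI. In 3posI it was 5.23 times the young mean, whereas 2posI was the lowest of all 7 libraries. The log2 difference was 1.09 (SE 0.76, 95% confidence interval -0.64 to 2.82, adjusted p = 0.470, edgeR), and it turned to -0.79 (adjusted p = 0.340) without 3posI. With limma-voom it was 0.35, and on the log2(TPM + 1) scale 0.27. The classical monocyte markers were highest in the same library, and their part in the value was not tested.

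Trem3 and Treml4, the neighbours of Trem1 on chromosome 17, had the lowest levels of the 10 genes. Trem3, a DAP12-coupled receptor of mouse macrophages, measured 0.520, 0.224, 0.569 and 1.89 CPM in Young 14C, 18C, 23C and 29C, and 1.43, 4.65 and 1.21 CPM in Old 2posI, 3posI and 4posI. Each old value exceeded 3 of the 4 young values, and 29C lay among the old libraries. The log2 difference of 1.60 (SE 0.74, 95% confidence interval -0.09 to 3.29) had an unadjusted p of 0.0613 and an adjusted p of 0.289 in edgeR, and it was 0.72 (adjusted p = 0.657) without 3posI. The 11 neutrophil markers, led by Csf3r and S100a8, summed to 97.3 to 481.5 TPM in Young and 202.3 to 398.3 TPM in Old, and 4 of them were highest in 3posI. Trem3 was highest in 29C and 3posI, which were also the highest libraries for 2 of these 11 markers, S100a8 and S100a9. In TPM, however, 6 of the 11 were lower in 3posI than in 4posI. The part of neutrophils in the value was not tested. Counts of Trem3 were 10 to 182 per library.

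Treml4, a receptor that binds dying cells, held 6 to 143 counts per library. It measured 0.758, 0.157, 0.647 and 0.237 CPM in Young 14C, 18C, 23C and 29C, and 0.179, 3.65 and 0.713 CPM in Old 2posI, 3posI and 4posI. Apart from 3posI, at 8.13 times the young mean, the old libraries lay within the young range. The log2 difference was 1.75 (SE 0.93, adjusted p = 0.346, edgeR) with 3posI and 0.0034 (adjusted p = 0.999) without it. With limma-voom it was 1.12, and on the log2(TPM + 1) scale 0.49. The effective length that RSEM assigned to Treml4 ran from 844 to 1695 bases between libraries, so its TPM and CPM need not move together.

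**Figure D3:**
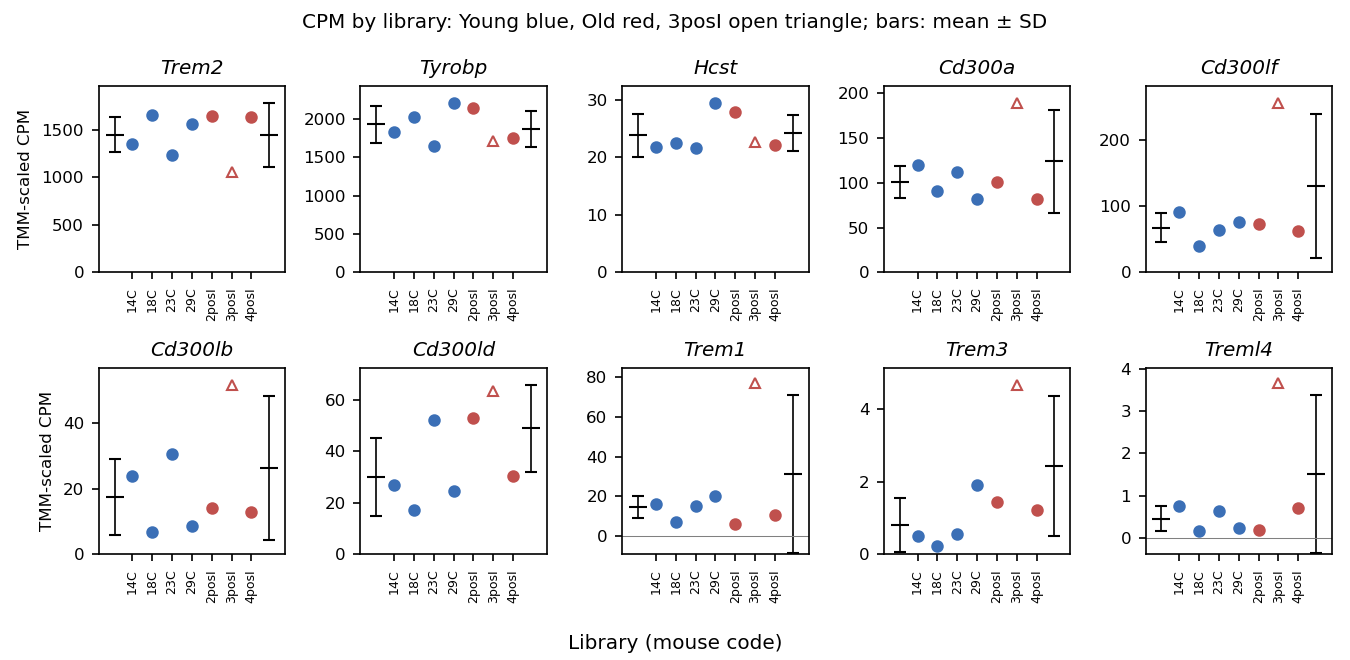
TMM-scaled CPM of each member in the 7 libraries (separate linear axes), Young in blue and Old in red with 3posI as an open triangle, and bars at the sides for the mean ± SD of each age. The triangle is the highest point for Trem1, Trem3, Treml4 and all 4 CD300 genes and the lowest for Trem2.

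The inhibitory receptors Cd300lf and Cd300a, both of which bind phosphatidylserine on dying cells, were the most abundant of the 4 CD300 members. Cd300lf measured 91.4 CPM in 14C, 40.4 in 18C, 63.5 in 23C and 76.2 in 29C, and 73.6 CPM in 2posI, 256.5 in 3posI and 63.5 in 4posI. The old mice 2posI and 4posI lay inside the young range and 3posI stood at 3.78 times the young mean. The log2 difference was 0.95 (SE 0.48, 95% confidence interval -0.15 to 2.05, adjusted p = 0.328, edgeR), and 0.01 (adjusted p = 0.985) without 3posI.

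Cd300a followed the same pattern with a smaller spread. It measured 119.5, 90.9, 111.9 and 82.1 CPM in Young 14C, 18C, 23C and 29C, and 101.3, 189.3 and 81.8 CPM in Old 2posI, 3posI and 4posI. The highest library was 3posI and the lowest was 4posI, both of them Old. The log2 difference was 0.30 (SE 0.28, adjusted p = 0.599, edgeR), and -0.14 (adjusted p = 0.727) without 3posI, while it was 0.02 on the log2(TPM + 1) scale. In TPM, the ratio of Cd300lf to Cd300a was 0.812 to 1.42 in Young, and 1.17, 2.27 and 1.51 in Old 2posI, 3posI and 4posI.

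Of the activating receptors, Cd300lb, which couples to DAP12, varied widely among the young mice. It measured 23.8 CPM in 14C, 6.71 in 18C, 30.4 in 23C and 8.65 in 29C, and 14.1 CPM in 2posI, 51.4 in 3posI and 12.9 in 4posI. The young libraries split into a higher pair, 14C and 23C, and a lower pair, 18C and 29C, and 2posI and 4posI fell between the pairs. Border-associated macrophage markers summed to 547 and 451 TPM in 14C and 23C and to 231 and 161 TPM in 18C and 29C, but only 4 of the 8 markers separated the same young pairs, and the sum was 562 TPM in 2posI. Their part in the level of Cd300lb was not tested. The log2 difference between ages was 0.59 (SE 0.64, adjusted p = 0.655, edgeR), and -0.36 (adjusted p = 0.781) without 3posI.

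Cd300ld, an activating receptor that pairs with the Fc receptor gamma chain, was the CD300 member whose fitted difference moved least when 3posI was left out. It measured 26.8 CPM in 14C, 17.1 in 18C, 52.1 in 23C and 24.5 in 29C, and 52.8 CPM in 2posI, 63.4 in 3posI and 30.4 in 4posI. Each old value exceeded 3 of the 4 young values, with 23C among the old libraries. The means were 30.1 ± 15.2 CPM (SD, n = 4) and 48.9 ± 16.9 CPM (SD, n = 3), and the log2 difference of 0.70 (SE 0.38, adjusted p = 0.354, edgeR) was 0.46 (adjusted p = 0.586) without 3posI.

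Extreme values of the members also fell in single young mice. Of the 10 genes 6 were lowest among Young in 18C, 3 in 23C and 1 in 29C. In 18C 5 members were the lowest of all 7 libraries. Young 29C held the highest value of 2 members, Tyrobp and Hcst. The share of all genes with an extreme in these libraries is not given here, so these counts are not a result about the members.

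**Figure D4:**
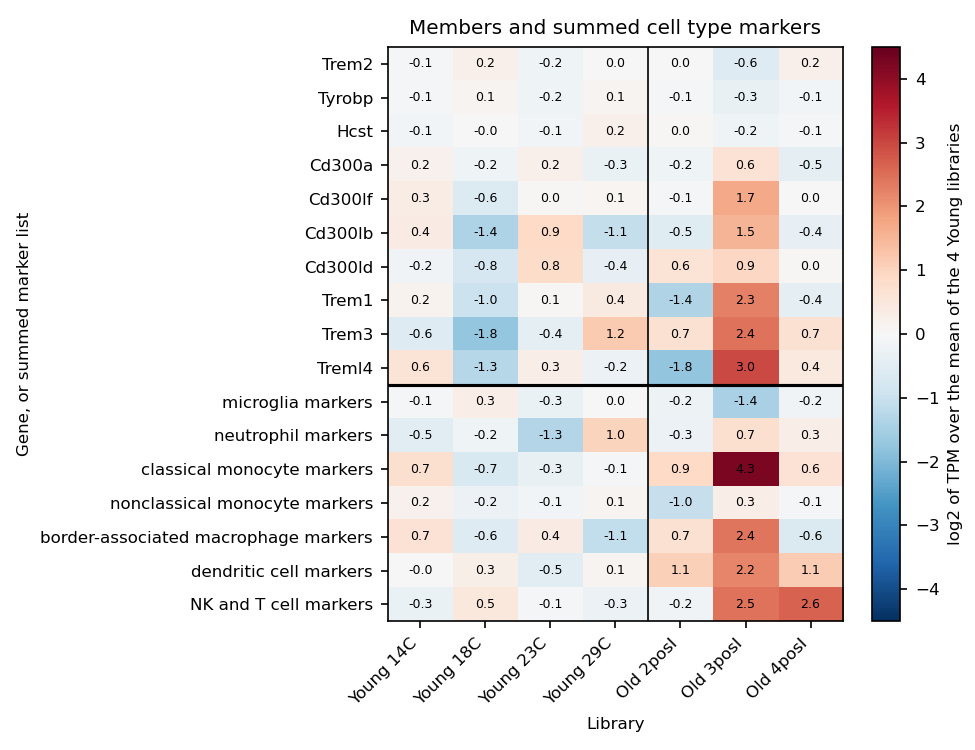
Log2 TPM of each member, and of the summed markers of each cell type, relative to the mean of the young libraries, as a colour for each of the 7 libraries. The column of 3posI is raised for the CD300 genes, Trem1, Trem3 and Treml4. It is also raised for the classical monocyte, border-associated macrophage, dendritic cell, and NK and T cell markers. It is raised less for the neutrophil and nonclassical monocyte markers, and lowered for Trem2 and the microglia markers. It is lowered less for Tyrobp (4017 TPM, against 4394 to 5490 TPM in the other libraries) and Hcst (73.3 TPM, against 78.11 to 98.35 TPM).

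The other genes of the pathway were read from 5 lists of 77 genes, of which 73 were tested. Of these 2 rose in old mice and 0 fell in edgeR, and 22 had an unadjusted p under 0.05, against 0.803% called and 18.9% with such a p over all genes. Old and young ranges did not overlap for 20 of the 73, against 17.7% of all genes. Fitted differences were above 0 for 47 of the 73, against 48.8% of all genes, with a median log2 difference of 0.17. Without 3posI they were above 0 for 45 of 73, also with a median of 0.17. The lists were chosen with earlier results of these data known, so these shares are descriptive and not independent support. DESeq2 called 14 of the 73, of which 13 were higher in old mice, and 1399 of all 17559 genes. In the simulation described below, 28.4% of the calls of DESeq2 were false, a share that need not hold for these 14.

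Pik3ca, a catalytic subunit of PI3K, which DAP10 recruits, was among the genes that rose. It measured 14.9 to 16.3 CPM in Young and 27.2, 28.1 and 24.8 CPM in Old 2posI, 3posI and 4posI. Every old library exceeded every young one. The log2 difference of Pik3ca was 0.78 (SE 0.12, adjusted p = 0.0308, edgeR), and 0.74 (adjusted p = 0.0434) without 3posI. It was called in 8 of 10 alternative settings but in only 1 of 7 fits that left out a library, the one without 3posI, and it did not pass on the log2 TPM scale. Other PI3K subunits went both ways. In edgeR the log2 difference was 0.81 for Pik3cb (adjusted p = 0.0524), -0.11 for Pik3cg (adjusted p = 0.858) and -0.24 for Pik3r1 (adjusted p = 0.677). It was -0.34 for Pik3cd (adjusted p = 0.302), the most abundant of them at 53.1 TPM against 6.62 TPM for Pik3ca. For Pik3r2 it was -0.44 (adjusted p = 0.131), with every old library below every young one. DESeq2 called Pik3cb higher and Pik3r2 lower. Among the 32 kinases and linkers tested, 2 were called in edgeR and 7 in DESeq2, 14 had a difference above 0, and the median was -0.02 (0.06 without 3posI). Syk, the kinase that binds the ITAM of DAP12, had a log2 difference of -0.11 (adjusted p = 0.777), and of -0.30 (adjusted p = 0.338) without 3posI.

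Among other TREM and CD300 genes 0 of 10 passed in either direction in edgeR and 2 in DESeq2, with 8 above 0 and a median log2 difference of 0.50 (0.11 without 3posI). Cd300ld3, another gene of the CD300 family, measured 0.694 to 2.45 CPM in Young and 5.22, 8.08 and 3.13 CPM in Old, without overlap, and its log2 difference was 1.85 (SE 0.46, adjusted p = 0.0968, edgeR). DESeq2 gave an adjusted p of 0.0034 for it. Cd300c2, another activating CD300 receptor, reached 193 to 224 CPM in Young and 230 to 272 CPM in Old, without overlap. Its log2 difference was 0.25 (adjusted p = 0.308, edgeR). At a mean of 263 TPM it was more abundant than Cd300lf, the highest CD300 gene among the members, at 78.5 TPM. Reads of the Cd300 genes can be shared between close copies, which makes these values uncertain.

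Of the other receptors that pair with DAP12 or DAP10, 0 of 10 passed in edgeR and 4 in DESeq2, all 10 had a fitted difference above 0, and 9 of the 11 listed were highest in 3posI. Their median log2 difference was 2.11 with 3posI and 0.96 without it. Klrk1, which encodes the DAP10 partner NKG2D, held 0 to 14 counts in Young and 20, 229 and 38 in Old 2posI, 3posI and 4posI, with a log2 difference of 4.59 (SE 1.14, adjusted p = 0.0974, edgeR) and of 2.83 (adjusted p = 0.226) without 3posI. NK and T cell markers summed to 0.66 to 1.13 TPM in Young and to 0.72, 4.42 and 5.04 TPM in Old 2posI, 3posI and 4posI, and 7 of the 10 were at 0 in 2posI. Their part in the level of Klrk1 was not tested. DESeq2 gave Klrk1 an adjusted p of 0.00087. Pilrb2, a DAP12-coupled receptor, measured 0.647 to 1.21 CPM in Young and 2.06, 6.72 and 1.60 CPM in Old (log2 difference 1.91, adjusted p = 0.119, edgeR). Without 3posI the difference was 0.99 (adjusted p = 0.247), and DESeq2 with all libraries gave an adjusted p of 0.0099.

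Ligands and the shedding enzymes of TREM2 did not pass, with 0 of 9 called, 6 above 0 and a median log2 difference of 0.13 (-0.045 without 3posI). Lgals3, which encodes galectin-3, a TREM2 ligand, measured 232 to 909 CPM in Young and 778, 2116 and 705 CPM in Old (log2 difference 1.28, SE 0.53, adjusted p = 0.240, edgeR), and the difference was 0.58 (adjusted p = 0.550) without 3posI. Adam17, a protease that sheds TREM2, measured 201 to 228 CPM in Young and 186, 184 and 174 CPM in Old, below every young library. Its log2 difference was -0.24 (adjusted p = 0.275, edgeR), and -0.42 (adjusted p = 0.112, edgeR) with effective length as an offset. On the log2(TPM + 1) scale it was -0.52 (adjusted p = 0.0614, limma). Apoe, a lipid carrier that TREM2 binds, had a log2 difference of -0.03 (adjusted p = 0.979), which rested on 3posI at 40040 CPM and was -0.63 (adjusted p = 0.463) without it.

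Of 12 inhibitors below the receptors 0 passed in edgeR and 1 in DESeq2, and 9 were above 0, with a median log2 difference of 0.29 (0.23 without 3posI). Csk, which restrains Src family kinases, measured 49.5 to 69.3 CPM in Young and 81.4, 83.5 and 78.1 CPM in Old without overlap (log2 difference 0.46, SE 0.13, adjusted p = 0.128, edgeR), and DESeq2 gave an adjusted p of 0.0335. Cbl, a ubiquitin ligase that limits kinase signalling, had a log2 difference of 0.55 (adjusted p = 0.201), and of 0.35 (adjusted p = 0.385) without 3posI. Ptpn6, the gene of SHP-1, was level, with 0.07 (adjusted p = 0.815).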

How the data were processed

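Microglia from 7 mice were compared, 3 Old and 4 Young. The authors trimmed reads with skewer, checked them with FastQC 0.11.5, mapped them with STAR to GRCm38 and quantified GENCODE m15 genes with RSEM. The latter tools' versions were not given in the sources used here. They deposited expected counts, which are not normalized, and TPM and FPKM values, scaled within each library. FPKM was not used for any result. Libraries were a non-stranded Smart-seq2 protocol with no molecular identifiers named, so PCR copies count as reads and p-values cover the spread between these animals only.

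Expected counts were rounded. Genes above 10 in at least 1 library and outside chromosomes X, Y and M were kept. TMM factors (0.952 to 1.05) and the quasi-likelihood test came from edgeR 4.0.16 in R 4.3.3, with age as the only term, Benjamini-Hochberg adjustment over 17559 genes and a threshold of 0.05. All 10 members passed this filter. The biological coefficient of variation was 37.2%. In a simulation of this comparison over 17559 genes with 200 changed, edgeR found 51% of 4-fold and 19% of 2-fold changes. Of its calls 7.89% were false, against 28.4% for DESeq2. The simulated spread came from edgeR's own estimates. Both shares depend on how many genes change, which is not known for the real data. GENCODE vM21, not the authors' release, gave the coordinates. limma 3.58.1, DESeq2 1.42.0, other factors and filters, log2(TPM + 1) and log2(TPM + 0.1) were alternatives. In each list, genes past the threshold were named (1 of them is not reported here), otherwise the 2 smallest p with a mean of at least 1 CPM. The 3 genes closest to Trem2 and to Tyrobp and the highest markers of a cell type were also named. Apoe, Syk, Ptpn6 and the PI3K subunits other than Pik3ca were added after their values were seen. Members and lists were chosen with earlier results of these data known.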

Additional observations from a re-analysis of the deposited data

Results flagged for a closer look

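Hcst in Young 29C stood apart from the other young libraries. Its 29.4 CPM compared with 21.6 to 22.5 CPM in 14C, 18C and 23C, and its gap to the next value took 0.885 of the young range, above the 95% critical value of Dixon's test for 4 samples. Chance marks about 1 in 20 groups, and 20 genes were checked. The same library was highest for Tyrobp (2206 CPM).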

How the results depend on the processing

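The number of members called was 0 in all 10 alternatives and in all 7 fits that left out a library. Over all genes, DESeq2 called 1399 genes (744 higher), no filter on low counts 288 (157 higher), the effective-length offset 213, log2(TPM + 1) 64 and log2(TPM + 0.1) 71. Leaving out a library gave 1 to 159 calls, with 159 without 3posI, 85 without 4posI, 14 without 23C, 2 without 29C, and 1 without 14C, 18C or 2posI. Of the pathway genes DESeq2 called 14, both TPM scales called 0, and leaving out a library called 0 to 2. The cause was not tested.

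Directions near 0 were not stable. Trem2 became 0.0035 with DESeq2 and with RLE factors, 0.0048 with filterByExpr and 0.0189 with the length offset. Hcst became -0.0118 with upper-quartile factors, -0.0025 without a filter, -0.067 on log2(TPM + 1) and -0.0677 on log2(TPM + 0.1), and Cbl -0.0217 and -0.0235 on these TPM scales. With 1 library left out, log2 differences ran from -0.79 to 1.57 for Trem1, -0.11 to 0.18 for Trem2, -0.16 to 0.0229 for Tyrobp, -0.0931 to 0.14 for Hcst, -0.14 to 0.52 for Cd300a and -0.36 to 1.00 for Cd300lb. No paired analysis was possible because no mouse code occurs in both ages.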
